A study of Mus musculus with 41 samples.

Results

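The 8 genes described here move drugs or metal across the plasma membrane of mouse cells. They were chosen by symbol and not by a measured value, though earlier results of these data were known at the time. They were Abcb1a and Abcb1b, which both encode P-glycoprotein, Abcg2, the multidrug resistance protein genes Abcc1, Abcc3, Abcc4 and Abcc5, and the copper importer Slc31a1. All 8 were among the 47480 symbols of the expression table, and all 8 were among the 17208 genes with a mean value of at least 10 that were tested. RNA sequencing had been done on 41 mammary tumors of Balb/c mice: 28 tumors lacked both Plk2 and p53 (Plk2-/-; p53-/-, named PLK2null) and 13 lacked p53 with Plk2 intact (p53-/-, named p53null). Loss of p53 was thus shared by every tumor. The tumors grew in the mammary fat pad of syngeneic hosts without any drug, so that no value below is a response to treatment, and the host's own stroma and vessels are part of each sample. The age of the hosts was not given in the sources used here. The labels do not say which tumors arose separately. Some were closely alike (r = 0.956 between PLK2null-732 and PLK2null-733, over log2 values of the genes tested after each gene was centred, 0.887 between PLK2null-1964 and PLK2null-7747, and 0.867 between PLK2null-1985 and PLK2null-1986), and the p-values treat every tumor as a separate sample. For its drug experiments the study took PLK2null-743 (claudin-low) with p53null-T11 as the control in a first dose trial and T12, which was not analysed here, in the main one, PLK2null-1975 (luminal-like) with p53null-2208L, and PLK2null-1963 (basal-like), whose own control was not analysed here. Each of these model lines was a single sample.

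ATP-binding cassette (ABC) transporters spend ATP to push substrates out of the cell. P-glycoprotein exports bulky lipophilic drugs such as taxanes, anthracyclines and vinca alkaloids. The ABCG2 protein, known as breast cancer resistance protein, carries topoisomerase inhibitors, urate and porphyrins, secretes compounds into milk, and is found in the endothelium of the blood-brain barrier. The multidrug resistance proteins of the ABCC family export organic anions, among them drugs coupled to glutathione. SLC31A1, also called CTR1, works in the opposite direction: it takes up copper, and it has been linked to the entry of platinum drugs such as carboplatin, which the study gave to its mice.

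Before the transporters are described, the limits shared by all values need to be stated. Values had been scaled to an upper quartile of 1000, taken over the genes above 0 in a tumor. The depth that the deposited values imply ran from 29409526 to 70868089 fragments. At this depth 1 read was worth 0.388 to 0.817, and a floor of 3 reads lay between 1.16 and 2.45. No member was under the floor in any tumor. Depth differed between the genotypes, with a median of 39053795 fragments in the PLK2null and 58042747 in the p53null tumors, and its part in the differences was not tested. Plk2 itself ranged from 36.6 to 553 (median 284) in the PLK2null tumors and from 186 to 8028 (median 3402) in the p53null tumors, and the library labelled p53null-7435 held the 186, inside the PLK2null range. Every p53null title carries a numbered series name that no PLK2null title carries, so that genotype and library series cannot be told apart. Across genes the genotype difference also moved with transcript length (Spearman rho = 0.315 over 16600 genes, a description), from a median of -0.31 on the log2 scale in the 3320 genes with the shortest transcripts to 0.45 in the 3320 with the longest. The members' transcripts were 3718 to 6792 bases long, and the part of transcript length in their differences was not tested beyond the length-centred values given below. In 3 samples, PLK2null-743 with PLK2null-732 and PLK2null-733, the markers of mammary epithelium were nearly absent (summed value 53.6 to 404, against at least 19888 in the other 38 tumors). These samples were singled out from the data and are called epithelium-poor here, and relations are given without them. By sum p53null-T11 was not among them (33791). Its epithelial score, the mean log2 value of the markers after each was centred on its median, was nonetheless -5.24. The next tumor, PLK2null-7763, was at -2.11. Relations in the p53null tumors are therefore also given without T11.

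The sequences of the P-glycoprotein pair bear directly on how well their values can be told apart. The mouse has 2 neighbouring P-glycoprotein genes where humans have a single ABCB1. Both lie on the plus strand of chromosome 5 of mm10, Abcb1a (ENSMUSG00000040584.8) at positions 8660077 to 8748575 and Abcb1b (ENSMUSG00000028970.9) at 8798147 to 8866315. Their coding sequences, 3831 bases each in GENCODE, were identical at 88.3% of 3816 aligned bases, and the longest identical run was 338 bases. Of all windows of 50 bases, the read length used, 18.6% of the Abcb1a transcript and 19.6% of the Abcb1b transcript also occurred in another gene, mostly each other. In the other 6 members no such window was shared. Reads from the shared windows had to be apportioned between both genes by Salmon, so their separate values are less certain than their sum. The least alike stretch of 60 aligned coding bases, starting at position 1913 of Abcb1a and 1922 of Abcb1b, is shown as a part in which reads do tell them apart, with 35 identical bases and the differing ones in capitals.
Abcb1a: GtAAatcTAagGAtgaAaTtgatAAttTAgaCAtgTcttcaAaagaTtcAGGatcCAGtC
Abcb1b: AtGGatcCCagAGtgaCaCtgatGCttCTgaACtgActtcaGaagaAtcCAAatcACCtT

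The sequences before both starts are shown because the transcripts tended to move together, as described below. RefSeq (GRCm38.p6, the mm10 build) had a promoter for 6 of the 8 members, without Abcc1 and Abcc3. Capitals mark the CCAAT box (CCAAT or ATTGG) and the GC box (GGGCGG or CCGCCC), and both strands were searched for these and for the E-box CACCTG (or CAGGTG) to which Zeb1 binds. Among 32851 promoters of the same length, 33.8% held a CCAAT box, 32.7% a GC box and 17.2% this E-box. The 250 bases before the Abcb1b start, chr5:8797897-8798146 on the plus strand, held 2 CCAAT boxes, 1 GC box and no such E-box.
Abcb1b: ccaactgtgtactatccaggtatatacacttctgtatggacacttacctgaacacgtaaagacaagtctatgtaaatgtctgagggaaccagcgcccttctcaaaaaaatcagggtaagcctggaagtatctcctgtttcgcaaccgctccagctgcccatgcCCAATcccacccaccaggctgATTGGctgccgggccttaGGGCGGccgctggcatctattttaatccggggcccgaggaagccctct
The 250 bases before the Abcb1a start in RefSeq, chr5:8566841-8567090 on the plus strand, held none of the 3 motifs. This start lies 92986 bases upstream of the GENCODE start used above, so the window may not be the one used in these tumors.
Abcb1a: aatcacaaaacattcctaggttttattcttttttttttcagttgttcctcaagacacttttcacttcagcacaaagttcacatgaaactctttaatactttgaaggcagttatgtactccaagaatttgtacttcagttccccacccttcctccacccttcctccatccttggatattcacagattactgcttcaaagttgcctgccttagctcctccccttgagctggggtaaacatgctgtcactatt

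Per kilobase of transcript, a scale on which genes can be compared with each other, the most abundant of the 8 was the importer. The mean over the 41 tumors was 541 for Slc31a1, 228 for Abcc1, 149 for Abcc5, 134 for Abcc3, 167 for Abcg2, 115 for Abcc4, 52.0 for Abcb1b and 28.4 for Abcb1a. By median Abcg2, at 96.3, came after Abcc5 (101) and Abcc3 (97.4). Slc31a1 lay above Abcc1 in 40 of 41 tumors, and Abcc1 above Abcc5 in 32 of 41. The next 3 neighbours in the order by median changed places from tumor to tumor. Abcc5 exceeded Abcc3 in 19 of 41 tumors (16 of 28 PLK2null but 3 of 13 p53null), and their mean levels per kilobase were 178 and 131 in the PLK2null tumors and 85.4 and 141 in the p53null tumors. Abcc3 exceeded Abcg2 in 22 of 41, and Abcg2 exceeded Abcc4 in 26. Abcb1b exceeded Abcb1a in 32 of 41, in 25 of the 28 PLK2null tumors and in 7 of the 13 p53null tumors. The other genes lie apart from each other in the genome (mm10, GENCODE): Abcg2 at chromosome 6, 58584523 to 58695676, Abcc3 at chromosome 11, 94343295 to 94392997, Abcc4 at chromosome 14, 118482692 to 118706219, and Abcc1 and Abcc5 both on chromosome 16, at 14361558 to 14475737 and 20331303 to 20426394. Slc31a1 was the highest of the 8 per kilobase in 36 tumors and Abcg2 in 3, while Abcc4 and Abcc1 led in 1 tumor each.

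**Figure D1:**
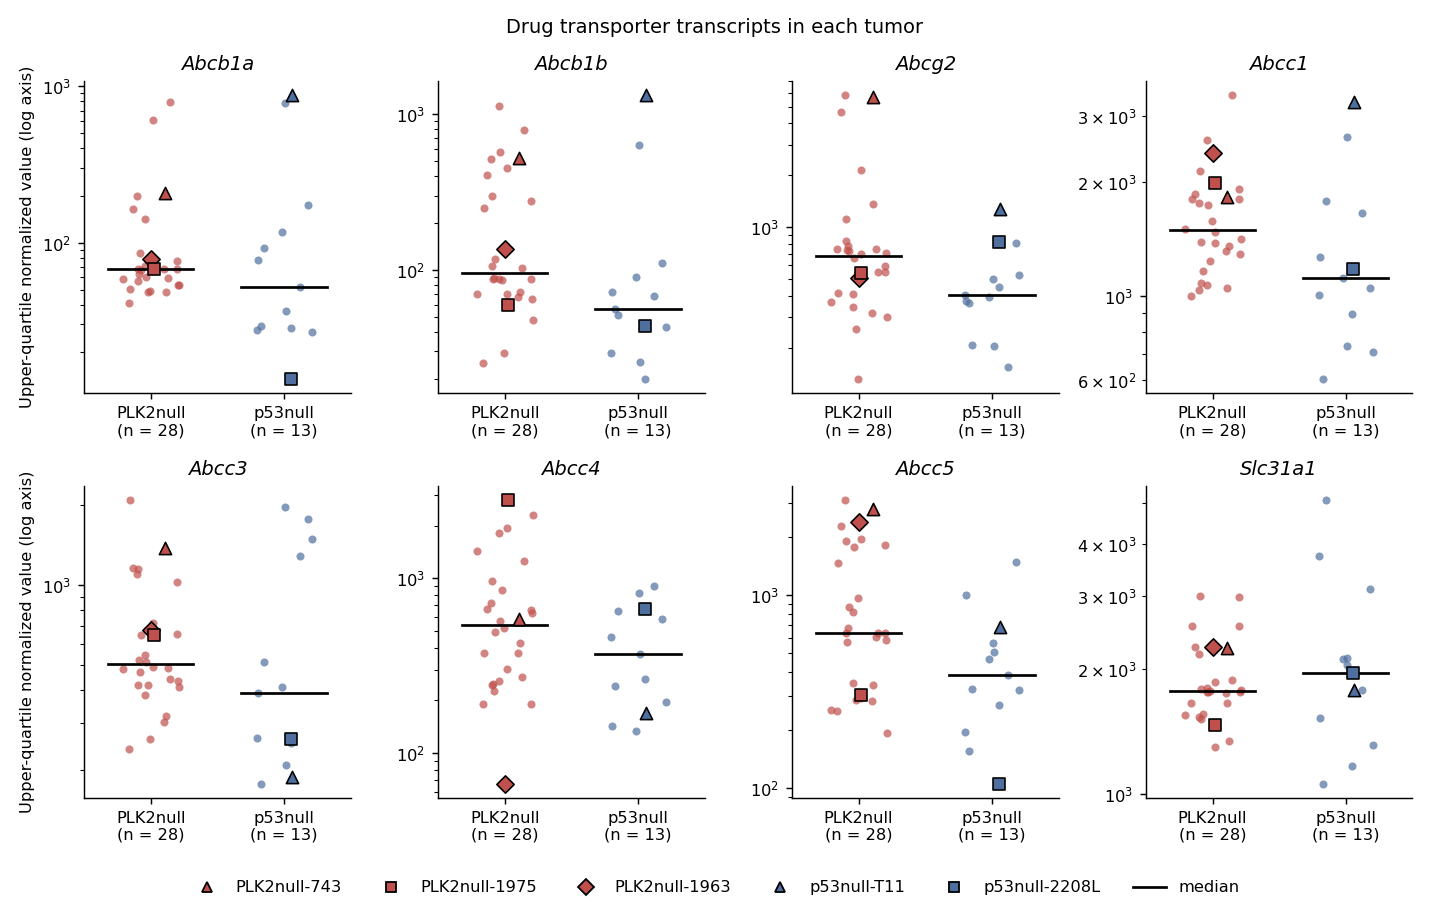
Each point is a tumor, with the upper-quartile normalized value of the gene on a logarithmic vertical axis and a bar at the median of the 28 PLK2null or 13 p53null tumors. Outlined symbols are the model lines and their controls: the ranges of both genotypes overlap for all 8 genes, and p53null-T11 is the highest p53null tumor for Abcb1a, Abcb1b, Abcg2 and Abcc1.

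The members differed in how widely they varied between tumors. Within the 28 PLK2null tumors, the standard deviation of log2 values was 1.45 for Abcb1b, 1.28 for Abcg2, 1.26 for Abcc4, 1.22 for Abcc5 and 1.04 for Abcb1a, against a median of 0.63 over all genes tested. Slc31a1 was the steadiest, at 0.32, lower than all but 11.5% of the genes tested, and Abcc1 followed at 0.43. Within the 13 p53null tumors Abcb1a and Abcb1b were the most variable, at 1.84 and 1.73, and Slc31a1 (0.65) and Abcc1 (0.72) lay near the all-gene median of 0.71.

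To ask whether loss of Plk2 went with a different transporter makeup, both genotypes were compared on log2(value + 1) with limma and Benjamini-Hochberg adjustment over all 17208 genes. None of the 8 members passed an adjusted p of 0.05, whereas 39.5% of all genes tested did (24.3% higher and 15.3% lower in the PLK2null tumors). At an unadjusted limma p below 0.05, 1 member, Abcc5, passed. Over all genes tested the share at that threshold is at least the 39.5% that passed after adjustment. The median difference of the members was 0.48, beside 0.10 over all genes tested. The point estimate was above 0 for 7 members and below 0 for Slc31a1. Centred by transcript length, the median of the members was 0.07 (beside -0.03 over all genes) and 4 of 8 were above 0. Without that centring, genes of the 2 longest length classes, whose median transcripts are 3996 and 6362 bases, had medians of 0.20 and 0.45. The intervals were wide beside the estimates. The 95% intervals were -0.68 to 1.09 for Abcb1a, -0.16 to 1.88 for Abcb1b, -0.01 to 1.54 for Abcg2 and -0.01 to 0.72 for Abcc1. For Abcc3, Abcc4 and Slc31a1 they were -0.38 to 0.88, -0.18 to 1.38 and -0.40 to 0.21. The interval of Abcc5, 0.14 to 1.70, was the only one clear of 0 before adjustment.

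**Figure D2:**
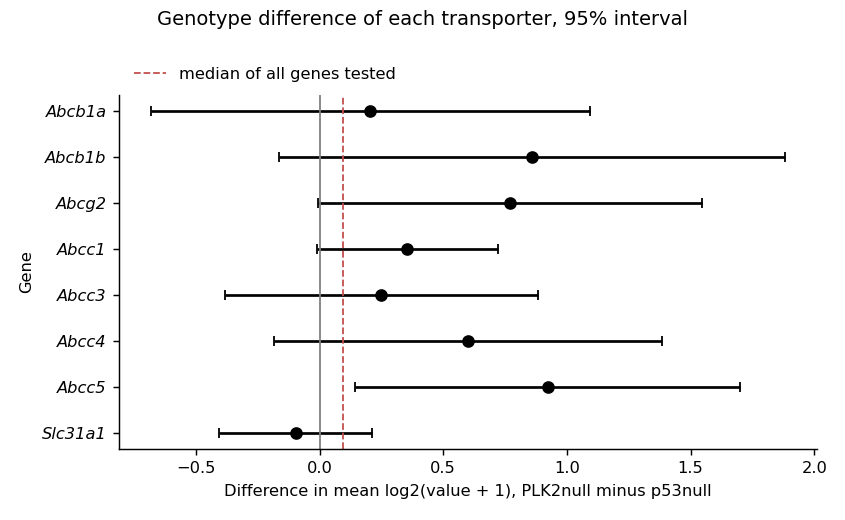
The horizontal axis is the difference in mean log2(value + 1), PLK2null minus p53null, for each gene, with points at the estimate and bars over the 95% interval from limma. The dashed line is the median of all genes tested, at 0.10: only the interval of Abcc5 leaves out 0, and that of Slc31a1 is the narrowest.

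P-glycoprotein is the classical drug efflux pump of the set, and its 2 genes were the least abundant members. Abcb1a ranged from 41.3 to 793 with a median of 67.7 in the PLK2null tumors, and from 13.4 to 877 with a median of 51.8 in the p53null tumors. Most tumors sat low and a few stood high: PLK2null-1973 (793) and PLK2null-7763 (611), and p53null-T11 (877) and p53null-10155 (782). The genotypes overlapped, with a log2 difference of 0.21 (limma adjusted p = 0.744; permutation p = 0.664, 2-sided). Even so, 6 of the 13 p53null tumors lay below every PLK2null tumor, and 1, T11, lay above every one. Of the 28 PLK2null tumors, 23 lay above the p53null median of Abcb1a. Abcb1b ranged from 25.3 to 1121 (median 95.7) in the PLK2null tumors and from 20.01 to 1324 (median 56.5) in the p53null tumors. Its 3 highest PLK2null values were 1121 in PLK2null-1974, 792 in PLK2null-1973 and 570 in PLK2null-1971. The log2 difference of Abcb1b was 0.86 (limma adjusted p = 0.178; permutation p = 0.0990), and 0.62 when centred by transcript length (adjusted p = 0.353). It was called once a single tumor, p53null-T11, was left out, at 1.20 (limma adjusted p = 0.0393), and T11 was the only p53null tumor above every PLK2null tumor.

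Both P-glycoprotein genes moved together from tumor to tumor, but not in every tumor. Over the 12 p53null tumors other than T11 the correlation of log2 values was r = 0.88 (permutation p = 0.000510, adjusted over 28 pairs 0.0143) and Spearman rho = 0.79 (p = 0.00302, adjusted 0.0423). Without the 2 tumors farthest from the median, p53null-10155 and p53null-2331L, r was 0.60. Over the 25 PLK2null tumors other than the epithelium-poor tumors, r was 0.65 (permutation p = 0.000710, adjusted 0.00543), rho was 0.58 (p = 0.00296, adjusted 0.0143) and r without the 2 farthest tumors was 0.63. With all tumors r was 0.71 for PLK2null and 0.92 for p53null. Reads shared between the genes can add to such a relation, and their part was not tested. Single tumors broke the pattern. PLK2null-1973 held nearly equal values (793 of Abcb1a and 792 of Abcb1b), whereas PLK2null-1974 held 142 of Abcb1a and 1121 of Abcb1b, and PLK2null-1971 held 60.03 and 570.

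**Figure D3:**
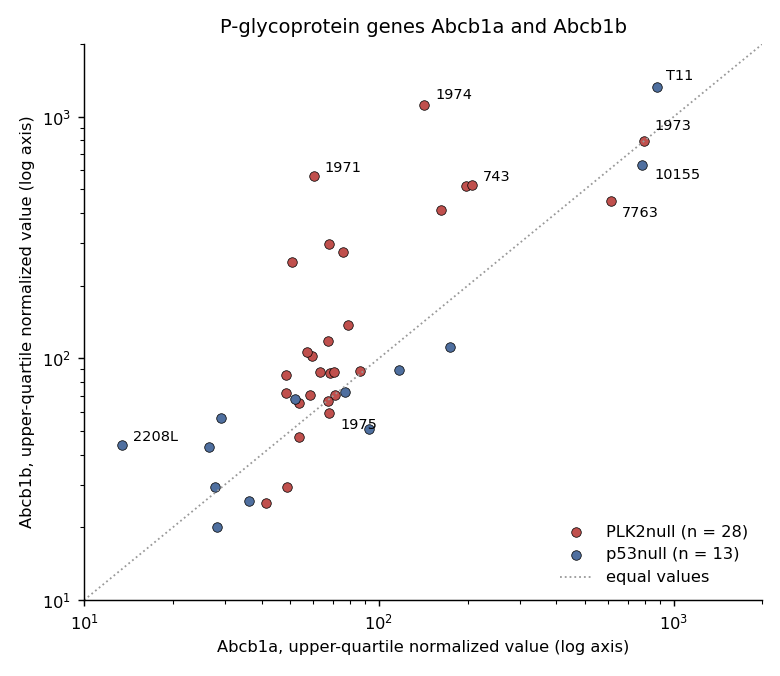
Abcb1a (horizontal) and Abcb1b (vertical) as upper-quartile normalized values on logarithmic axes, a point per tumor, with equal values on the dotted line. p53null-T11, PLK2null-1973, p53null-10155 and PLK2null-7763 are high in both genes, PLK2null-1974 and PLK2null-1971 lie far above the line of equal values, and p53null-2208L holds the lowest Abcb1a value, 13.4.

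The genes around the Abcb1 locus were examined next, since the pair lies among unrelated genes. In PLK2null-1971 the median of the 53 tested genes within 10 Mb of Abcb1b was 1.36 above the PLK2null median on the log2 scale, the highest of the 28 tumors. There Abcb1b was 2.56 above its own median and Abcb1a was at -0.17. Genes within 500 kb were high with Abcb1b in this tumor. Rundc3b was 4.02 above its median, Crot, a peroxisomal carnitine acyltransferase, 1.55, the mitochondrial carrier Slc25a40 1.49, Dbf4, which activates the replication kinase Cdc7, 1.34, and Abcb4, the phospholipid flippase of bile, 1.28. In PLK2null-1974, with the highest Abcb1b of its genotype, Rundc3b was 2.86 above its median while Dbf4 was at 0.38 and Crot at 0.19. In T11 the median of the region was 0.30, the highest of the 13 p53null tumors, beside 4.53 for Abcb1b and 4.06 for Abcb1a. Over all 28 PLK2null tumors Rundc3b correlated with Abcb1b at r = 0.76 (0.77 in the p53null tumors), as a description. In the PLK2null tumors this was the highest r of the 9 tested genes within 500 kb, whose median was 0.55. By expression over all 41 tumors, the genes most like Abcb1b were Zeb1, a transcription factor of the epithelial to mesenchymal transition (r = 0.89), the phosphodiesterase gene Pde3b (0.84) and the anthrax toxin receptor gene Antxr2 (0.83). Those most like Abcb1a were the kinase gene Lrrk2 (0.80), Antxr2 (0.80) and Disp2 (0.79).

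Abcg2 showed the widest range in absolute terms. It ran from 132 to 5827 with a median of 678 in the PLK2null tumors and from 154 to 1275 with a median of 401 in the p53null tumors. The 3 epithelium-poor tumors held the top values, 5827 in PLK2null-733, 5698 in PLK2null-743 and 4645 in PLK2null-732, and PLK2null-7763 was next at 2145. These 4 and PLK2null-1980 (1368) were the 5 PLK2null tumors above every p53null tumor, and PLK2null-7748 was the single tumor below all of them. The log2 difference between the genotypes was 0.77 (limma adjusted p = 0.109; permutation p = 0.0488 before adjustment). It was 0.42 without the epithelium-poor tumors (limma adjusted p = 0.234) and 0.38 when centred by transcript length (adjusted p = 0.478). For Abcc1, Abcc4 and Slc31a1 the epithelium-poor tumors did not lead: PLK2null-743, PLK2null-732 and PLK2null-733 were not among the 6 highest PLK2null tumors.

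The same tumors were high in transcripts of the vessel lining. All 6 endothelial markers (Pecam1, Cdh5, Kdr, Tie1, Esam and Emcn) were detected in all 41 tumors. Their summed value was 165585 to 186496 in the 3 epithelium-poor tumors and 78025 in PLK2null-7763, against a median of 4889 over the 28 PLK2null tumors and a range of 2041 to 16463 in the p53null tumors. In the 25 PLK2null tumors without the 3 epithelium-poor tumors, log2 Abcg2 and the mean log2 endothelial score correlated at r = 0.70 (permutation p = 4.00e-05, adjusted over 128 relations 0.00512). Spearman rho was 0.69 (p = 0.000220, adjusted 0.0141), r was 0.64 without the 2 tumors farthest from the median score, and r was 0.70 over the 24 tumors without PLK2null-7763. Among the PLK2null tumors, red blood cell markers and the adipocyte sum stood high in the same 4 tumors. That adipocyte sum was dominated by Fabp4, which reached 124638, whereas no other adipocyte marker exceeded 249 in any tumor. By the mean log2 adipocyte score, PLK2null-732 and PLK2null-733 (0.63 and 0.61) lay below PLK2null-1981 (3.47) and PLK2null-1964 (2.85). The red blood cell sum was 94971 to 351849 in the epithelium-poor tumors and 21535 in PLK2null-7763 (PLK2null median 2458), and the adipocyte sum was 99120 to 124699 and 51862 (median 822). In the p53null tumors the red blood cell sum had a median of 11155 and reached 45104, above PLK2null-7763. Abcg2 with red blood cell markers had r = 0.78 over the 28 tumors and 0.30 over the 25, and with adipocyte markers 0.39 and 0.33. In the 12 p53null tumors without T11 the endothelial correlation was -0.06. Whether the difference between the genotypes in this relation exceeds their spread was not tested. With mammary epithelial markers Abcg2 went the other way in all 28 PLK2null tumors (r = -0.86), and at r = -0.60 in the 25. Less epithelial RNA per cell and fewer epithelial cells cannot be told apart in bulk tumors, and the part of RNA from these other cell types in Abcg2 was not tested beyond these values. The genes most like Abcg2 over the 41 tumors were Arap3, a GTPase-activating protein gene active in endothelium (r = 0.86), Tal1, a blood and vessel transcription factor (0.83), and Cd38, an ectoenzyme of leukocytes (0.83). Within the PLK2null tumors these r were 0.93, 0.88 and 0.88, and within the p53null tumors 0.28, 0.35 and 0.54.

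**Figure D4:**
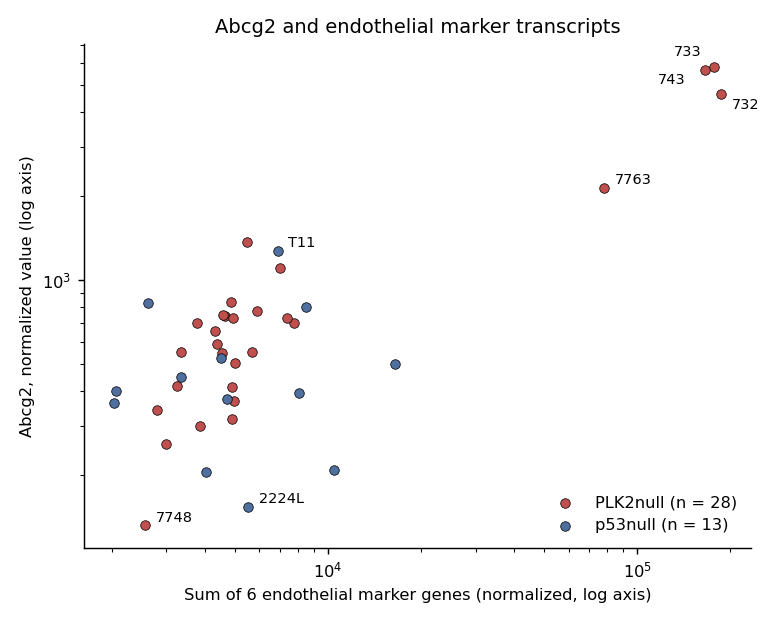
Abcg2 (vertical, normalized value) against the summed value of 6 endothelial marker genes (horizontal), both on logarithmic axes, a point per tumor. The 3 epithelium-poor tumors and PLK2null-7763 lie apart at the upper right, with Abcg2 between 2145 and 5827.

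Among the multidrug resistance proteins, Abcc1 was the most abundant and the most even. This basolateral pump of glutathione conjugates and leukotriene C4 reached 3396 in the PLK2null tumors, with a median of 1490, and ranged from 603 to 3259 (median 1113) in the p53null tumors. The highest tumors of the genotypes were PLK2null-1973 and p53null-T11, the same tumors that led in Abcb1a. The 4 lowest tumors of all were p53null. The log2 difference was 0.36 (limma adjusted p = 0.117; permutation p = 0.0554), and it passed adjustment without T11 (0.47, adjusted p = 0.0235) or without p53null-10155 (0.45, adjusted p = 0.0413), the 2 highest p53null tumors. Centred by transcript length, the difference of Abcc1, whose transcript is the longest of the 8, was -0.13. The genes most like Abcc1 were Heatr5a (r = 0.84), the splicing regulator Rbfox2 (0.78) and the nuclear import receptor gene Tnpo1 (0.76).

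Abcc3, a pump of glucuronides and bile salts, was spread over 240 to 2085 (median 502) in the PLK2null tumors while the p53null tumors started at 178, with a median of 391. PLK2null-1965 held the highest value, and the epithelium-poor tumors were among the 5 highest with 1377, 1159 and 1102. The p53null tumors fell into a low set of 9 at or below 513 and a high set of 4 at or above 1284, p53null-10155, p53null-2331L, p53null-10152 and p53null-2224L. T11 was in the low set, at 188. The log2 difference was 0.25 (limma adjusted p = 0.558; permutation p = 0.436), and without the 3 epithelium-poor tumors, PLK2null-7763 and T11 it was -0.01. The genes closest to Abcc3 were Fam174b (r = 0.78), the cGMP-dependent kinase gene Prkg1 (0.77) and the methionine sulfoxide reductase gene Msrb3 (0.77).

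Abcc4, which exports cyclic nucleotides, prostaglandins and nucleotide analogues, had both extremes of its genotype in model lines. It ranged from 66.7 to 2797 (median 542) in the PLK2null tumors and from 134 to 906 (median 366) in the p53null tumors. PLK2null-1975 was the highest of the 28 and PLK2null-1963 the lowest. Next to PLK2null-1975 stood PLK2null-7749 at 2291, which was also the tumor most like it over all genes tested (r = 0.63). In total 7 PLK2null tumors lay above every p53null tumor and 1 lay below, and the log2 difference was 0.60 (limma adjusted p = 0.224; permutation p = 0.135), or 0.21 when centred by transcript length (adjusted p = 0.723). No gene followed Abcc4 closely. The nearest were Tmem2 (r = 0.65), the GATA cofactor gene Zfpm1 (0.61) and the annexin gene Anxa3 (0.59).

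Abcc5, another exporter of cyclic nucleotides and of nucleotide analogues, came closest to a genotype difference. It ranged from 194 to 3087 (median 639) in the PLK2null tumors and from 106 to 1476 (median 383) in the p53null tumors. In total 8 PLK2null tumors were above every p53null tumor and 2 p53null tumors, p53null-2208L (106) and p53null-2153L (157), were below every PLK2null tumor. Among those 8 were the epithelium-poor PLK2null-733 (3087), PLK2null-743 (2763) and PLK2null-732 (2280). PLK2null-7747 (1902) and PLK2null-1964 (1801), closely alike over all genes (r = 0.887), were there too, so the 8 may not count as independent samples. The means differed by 0.92 on the log2 scale, a 1.89-fold difference, with a limma adjusted p of 0.0532 and a permutation p of 0.0231 before adjustment. The call depended on single tumors, since 12 of the 41 tumors, left out in turn, brought the adjusted p below 0.05, among them p53null-2331L (1.08, adjusted p = 0.0239). Centred by transcript length, the difference was 0.53 (limma adjusted p = 0.265). Abcc5 followed the cadherin gene Dchs1 (r = 0.90), the imprinting regulator Zfp57 (0.87) and Tmem136 (0.86) most closely. Among the 19 tested genes that start within 500 kb, Ece2, an endothelin-converting enzyme gene, had the highest correlation with it in the PLK2null tumors. Its r was 0.89 there and 0.48 in the p53null tumors. The median r of the 19 was 0.47 (lowest -0.54) in the PLK2null and 0.20 (lowest -0.22) in the p53null tumors.

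Slc31a1 was the steadiest member and the only one that brings a metal in. It ranged from 1297 to 2987 with a median of 1770 in the PLK2null tumors and from 1056 to 5093 with a median of 1949 in the p53null tumors. The 3 highest tumors of all were p53null, p53null-10151 (5093), p53null-2396R (3744) and p53null-2331L (3119), and so were the 2 lowest. The log2 difference was -0.10 with an interval of -0.40 to 0.21 (limma adjusted p = 0.649; permutation p = 0.522), and without p53null-10151 it was 0.016. Centred by transcript length it was -0.31 (limma adjusted p = 0.0757).

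Slc31a1 was most like genes of its own chromosome. Of the 20 genes most like it over the 41 tumors, 18 lie on its own chromosome 4, where 6.16% of the tested genes with a position lie. For the other 7 members the count was 0 to 2 of 20. The closest 3 were Tstd2 (r = 0.78), Dcaf12 (0.78) and the mitochondrial carrier Slc25a51 (0.76), and the 18 genes started between 2.59 and 53.8 Mb from Slc31a1, which lies at 62360727 to 62391769. Within the 28 PLK2null tumors alone 16 of the 20 closest genes lay on chromosome 4, and within the 13 p53null tumors 7 of 20. In p53null-10151 Slc31a1 was 1.39 above the p53null median, and the median of the 71 tested genes within 10 Mb was 1.31 above it. In p53null-2153L the same values were -0.88 and -0.69, the lowest of the 13. Between tumors, Slc31a1 and the median of these 71 genes correlated at r = 0.74 in the PLK2null tumors and 0.79 in the p53null tumors, a description with no test. PLK2null-7748 had the highest regional median of its genotype, 0.42, and a Slc31a1 value 0.38 above the median. Some tumors departed from their region, among them p53null-2331L, with Slc31a1 at 0.68 and the region at -0.11. In p53null-2225L the values were -0.74 and -0.04, and in p53null-2396R 0.94 and 0.26. A correlation with the region was not particular to Slc31a1: in the p53null tumors it was 0.95 for Abcb1b and 0.87 for Abcb1a, and in the PLK2null tumors 0.60 for Abcc5 and 0.58 for Abcb1b. In the p53null tumors, however, the Abcb1 region ran only from -0.11 to 0.30, beside -0.69 to 1.31 for the Slc31a1 region. T11 and p53null-10155, with the region at 0.30 and 0.22, held Abcb1b at 4.53 and 3.46. The correlation without these tumors was not computed. For Abcg2 and Abcc4 the correlation with the region was 0.18 and 0.05 in the PLK2null and 0.42 and 0.21 in the p53null tumors.

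**Figure D5:**
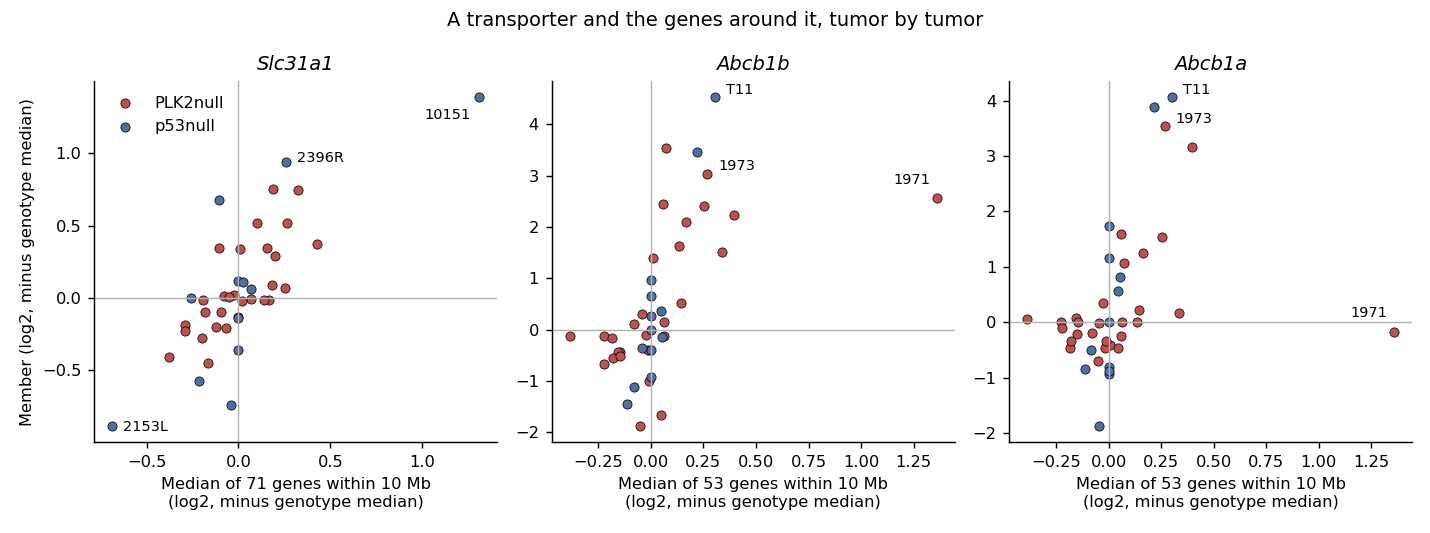
For Slc31a1, Abcb1b and Abcb1a, each tumor's log2 value minus its genotype's median (vertical) against the median of the same quantity over the tested genes within 10 Mb (horizontal). In p53null-10151 Slc31a1 and its region are 1.39 and 1.31 above the median, and PLK2null-1971 has the highest region around Abcb1b, with Abcb1b raised by 2.56 and Abcb1a at -0.17.

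In pairs, the members were mostly positively related within a genotype. In the 25 PLK2null tumors other than the 3 epithelium-poor tumors, 6 of the 28 pairs had both a Pearson and a Spearman permutation p below 0.05 after adjustment, against 13 of 28 when the epithelium-poor tumors were included. After Abcb1a with Abcb1b, the strongest were Abcb1b with Abcc5 (r = 0.62, adjusted p = 0.00543; rho = 0.75, adjusted p = 0.00112; r = 0.77 without the 2 farthest tumors) and Abcc3 with Abcc5 (r = 0.62, adjusted p = 0.00543; rho = 0.67, adjusted p = 0.00504; r = 0.57 without the 2 farthest tumors). The exporter Abcc5 and the importer Slc31a1 were also related (r = 0.61, adjusted p = 0.00543; rho = 0.59, adjusted p = 0.0143; r = 0.63 without the 2 farthest). Abcc4 stood apart. None of its 7 pairs in the 28 PLK2null tumors passed adjustment, and with Abcc5 its r was -0.39 (permutation p = 0.0410, adjusted 0.0676). In the 25 tumors this pair had r = -0.52 (permutation p = 0.00831, adjusted 0.0291), rho = -0.42 (adjusted 0.0838) and r = -0.38 without the 2 farthest. In the 13 p53null tumors 1 of 28 pairs passed both tests, Abcb1a with Abcb1b. With fewer tumors in that genotype, these counts cannot be compared between the genotypes. The median r of the 28 pairs was 0.24 in the 13 p53null and 0.46 in the 28 PLK2null tumors. It was 0.30 without T11 and 0.26 without the epithelium-poor tumors. The same counts for pairs of other genes were not computed.

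Other cell types were read in the same way, with 128 relations of the 8 members to 8 marker lists computed per setting. Without the epithelium-poor tumors and T11, 4 relations passed both tests after adjustment: Abcg2 with endothelium, described above, and 3 others. In the 12 p53null tumors Abcb1a went with endothelium (r = 0.88, permutation p = 0.000160, adjusted 0.0102; rho = 0.81, adjusted 0.0386; r = 0.82 without the 2 farthest tumors). In the 25 PLK2null tumors Abcc5 went with red blood cell markers (r = 0.58, permutation p = 0.00177, adjusted 0.0324; rho = 0.65, adjusted 0.0221; r = 0.58 without the 2 farthest). In the same tumors Abcc1 was lower where milk secretion markers were higher (r = -0.60, permutation p = 0.00154, adjusted 0.0324; rho = -0.70, adjusted 0.00896; r = -0.58 without the 2 farthest). The 4 PLK2null tumors with the highest milk marker sums, PLK2null-7750, PLK2null-1984, PLK2null-1985 and PLK2null-1986, were closely alike over all genes (PLK2null-7750 with PLK2null-1984 r = 0.787, PLK2null-1984 with PLK2null-1986 0.831), so they may not count as 4 independent samples. The summed red blood cell markers were 491 to 351849 in the PLK2null and 3140 to 45104 in the p53null tumors, with Slc4a1 at 0 in 9 tumors, and the milk markers were 481 to 232459 and 423 to 369877, with Csn2 at 0 in 2 tumors and Wap in 10. In the PLK2null tumors Abcb1a and endothelium correlated at r = 0.61, but at 0.18 without the epithelium-poor tumors and PLK2null-7763. Fibroblast markers (summed 11235 to 200741 in PLK2null and 12093 to 183503 in p53null tumors) went with Abcb1a in the 13 p53null tumors at r = 0.85 (permutation p = 0.000160, adjusted 0.00410; rho = 0.79, adjusted 0.0214; r = 0.71 without p53null-10155 and T11). Over the 12 without T11, r was 0.81 (permutation p = 0.000920, adjusted 0.0294) but the adjusted p of rho = 0.74 was 0.0844. Further relations passed both tests only with the epithelium-poor tumors included. Among them was Slc31a1 with macrophage markers in the 28 PLK2null tumors (r = -0.61, permutation p = 0.000440, adjusted 0.00704; rho = -0.53, adjusted 0.0354). Over the 25, r was -0.67 (permutation p = 0.000380, adjusted 0.0162) but the adjusted p of rho = -0.52 was 0.0865.

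The model lines differed from their controls gene by gene, and Abcc3, Abcc4 and Abcc5 were more than 2-fold higher in the PLK2null line of both pairs. These are ratios of single samples, and no test or error applies to them. Counted from the highest of the 13 p53null tumors, T11 was 12th for Abcc3 and 11th for Abcc4, but 3rd for Abcc5. Relative to the p53null median on the log2 scale, Abcc4 was at -1.11 in T11. The median of the 34 tested genes within 10 Mb of Abcc4 was at -1.20 there, the lowest of the 13. The part of this region in the Abcc4 ratio was not tested. The samples also differed in makeup, with an endothelial marker sum of 165585 in PLK2null-743 and 6876 in T11. Claudin-low PLK2null-743 held 5698 of Abcg2 against 1275 in T11 (4.47-fold), 1377 of Abcc3 against 188 (7.32-fold), 2763 of Abcc5 against 681 (4.06-fold) and 583 of Abcc4 against 169 (3.46-fold). T11 had more of both P-glycoprotein genes. It held 877 of Abcb1a against 207 in PLK2null-743 (4.24-fold) and 1324 of Abcb1b against 523 (2.53-fold), and it also had more Abcc1, 3259 against 1824 (1.79-fold). Slc31a1 was nearly level, at 2240 and 1774. The other 2 epithelium-poor tumors lay close to PLK2null-743, with Abcg2 at 4645 and 5827, Abcb1a at 163 and 198 and Abcc3 at 1159 and 1102.

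In the luminal-like pair, PLK2null-1975 held 2797 of Abcc4 against 665 in p53null-2208L (4.20-fold), 303 of Abcc5 against 106 (2.87-fold) and 645 of Abcc3 against 262 (2.46-fold). For Abcc5 p53null-2208L was the lowest of the 13 p53null tumors, and PLK2null-1975 was itself only 22nd of 28. For Abcc3 and Abcc4 p53null-2208L was 9th and 3rd of 13. Abcb1a was 68.0 against 13.4 (5.06-fold), but 13.4 was the lowest value of all 41 tumors and rests on about 34.5 estimated reads, and 68.0 was close to the genotype median. Abcc1 was 1.68-fold the 1178 of p53null-2208L, the reverse of its order in the other pair. Abcg2 and Slc31a1 were lower in PLK2null-1975 than in its control, at 545 against 824 and 1463 against 1949. Basal-like PLK2null-1963 had the lowest Abcc4 of its genotype, 66.7, and the third highest Abcc5, 2387. Its Abcc1, 2381, was also the third highest, and its Slc31a1, 2252, the sixth. Between the PLK2null lines, Abcc4 was thus 2797 in PLK2null-1975, 583 in PLK2null-743 and 66.7 in PLK2null-1963, and Abcc5 was 303, 2763 and 2387 in the same order.

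Other lists covered drug export, copper handling, glutathione, and regulators with Nrf2 targets. Of their genes, 14 of 47 tested (29.8%) passed the adjusted threshold in the same genotype comparison, beside 39.5% of all genes. In all 5 rose (10.6%, beside 24.3%) and 9 fell (19.1%, beside 15.3%). The part of transcript length in these lists was not tested. Over all genes, 36.0% of the 3320 with the shortest transcripts were called lower and 41.4% of the 3320 with the longest higher. Among 9 further drug efflux ABC genes, 5 could be tested (Abcb5, Abcb11, Abcc2 and Abcc6 were too low), and 1 rose, the lysosomal exporter gene Abcc10 (log2 difference 0.72, limma adjusted p = 0.00526). Of 14 tested genes of copper and platinum handling, 1 rose and 3 fell. The copper exporter gene Atp7a rose by 1.32 (adjusted p = 1.02e-05), while the copper chaperone gene Atox1 fell by 0.76 (adjusted p = 0.000256), Ccs, which loads copper onto superoxide dismutase, fell from a mean value of 1142 to 539 (adjusted p = 1.20e-07) and Lrrc8e, a subunit of volume-regulated anion channels, fell by 1.39 (adjusted p = 0.00808). Of 16 genes of glutathione synthesis and conjugation, 1 rose, Gclc, the catalytic subunit of the first enzyme of the pathway (0.62, adjusted p = 0.00367), and 5 fell. These were glutathione synthetase Gss by 0.83 (adjusted p = 4.40e-05), the glutathione transferase genes Gstp1 by 0.96 (adjusted p = 4.58e-07), Gstm2 by 1.13 (adjusted p = 0.0435) and Gsta4 by 1.83 (adjusted p = 0.00619), and Mgst3 by 0.55 (adjusted p = 0.00875). The last list joined general transcription regulators with Nrf2 and its targets. Of its 12 tested genes, the regulators Arnt and Sp1 rose (0.39 and 0.40, adjusted p = 0.0307 and 0.00190) and the regulator Rxra fell by 0.35 (adjusted p = 0.0351). Nfe2l2, which encodes Nrf2, was at 0.07 (adjusted p = 0.708). Keap1, Nqo1, Hmox1 and Txnrd1 were not called either (limma adjusted p = 0.964, 0.686, 0.837 and 0.233). The list medians were 0.72, -0.12, -0.55 and 0.07 in this order, beside 0.10 over all genes tested.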

How the data were processed

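RNA from 41 untreated tumors had been sequenced by the authors as paired 2x50 reads from poly(A) libraries. The submitters' processing notes name mm10, STAR 2.7.6a, SAMtools, Picard 2.22.4 and Salmon 1.4.0, and the annotation was not given in the sources used here. The deposited signal is a gene-level Salmon estimate scaled by the authors to an upper quartile of 1000 in each tumor, on a linear scale. Of the nonzero values 73.8 to 80.3% were whole reads within 0.1, so reads were not recovered. From these values, log2(value + 1) was tested with limma 3.58.1 (R 4.3.3), without covariates, over the 17208 genes with a mean of at least 10, and the fit was tested on simulated data. A fold change on this scale understates that of low genes. Permutation tests were 2-sided with 100000 resamples over tumors. Coordinates and transcripts came from GENCODE vM21, to which 95.0% of the symbols could be matched without ambiguity. Genes were named if they were members, passed the test in a fixed list or stood beside a member's result, were among the 3 genes most correlated with a member over the 41 tumors (without predicted genes), or started within 500 kb of a member. The subtype names of single model lines came from the study's text. No test compared subtypes, but relations and alternative fits were also run without 3 tumors low in epithelial markers, or without p53null-T11. The members and lists were chosen with earlier results of these data known. Alternatives are given in the closing section.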

Additional observations from a re-analysis of the deposited data

How the results depend on the processing

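The cause was not tested for any change given here. Over 13 alternatives (pseudocount, filter, limma trend, quantile and TMM scaling, sets of tumors left out), no member was called except Abcc1 without the epithelium-poor tumors and p53null-T11 (0.45, limma adjusted p = 0.0409) or without these and PLK2null-7763 (0.45, adjusted p = 0.0417), and Abcc5 without p53null-7435 (1.04, adjusted p = 0.0333). With the 7 PLK2null tumors from PLK2null-7747 to PLK2null-7764 only, 2942 genes were called in place of 6802, with fewer samples, and Abcc3 was at -0.032. Centring by transcript length and the set without PLK2null-7763 were chosen after seeing the data. The first put Abcb1a at -0.11, Abcc1 at -0.13 and Abcc3 at -0.070, and the second put Abcc3 at -0.011. The 4 other lists held within 1.5 times their counts, and 5 relations in each genotype kept their sign, with a pseudocount of 10 and with TMM scaling. Leaving out each tumor in turn gave 6346 to 7074 called genes, and differences of 0.01 to 0.50 for Abcb1a, 0.70 to 1.20 for Abcb1b (called only without p53null-T11), 0.65 to 0.90 for Abcg2, 0.27 to 0.47 for Abcc1, 0.13 to 0.42 for Abcc3, 0.48 to 0.71 for Abcc4, 0.77 to 1.08 for Abcc5 and -0.17 to 0.016 (without p53null-10151) for Slc31a1. No paired analysis was possible because the tumor numbers are names that the genotypes do not share. Depth differed between the genotypes and its part was not tested.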
